A study of Homo sapiens with 6 samples.

Results

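SOX transcription factors were followed in 2 Ewing sarcoma cell lines treated with THZ1, a covalent inhibitor of the transcriptional kinase CDK7. The genes described are SOX2, SOX4, SOX5, SOX6, SOX8, SOX9, SOX11, SOX12 and SOX13, that is 9 of the 27420 genes listed in the deposited table, found there by gene symbol. A673 and SKNMC cells, both established from Ewing sarcoma and grown in DMEM with fetal bovine serum, received either THZ1, at 50 or 200 nM, or its vehicle DMSO, and were collected after 6 h. Each of these 6 conditions was represented by 1 RNA-seq library, so no value carries a replicate error and no test within a line was possible. All 9 genes are listed in all 6 libraries.

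SOX proteins bind DNA through an HMG box related to that of the testis-determining factor SRY, and they usually act together with partner transcription factors. The family is divided into groups by sequence. SOX2 belongs to the SOXB1 group and maintains pluripotent cells and neural progenitors. SOX4, SOX11 and SOX12 form the SOXC group, expressed in neural and mesenchymal progenitors and in many tumours. SOX5, SOX6 and SOX13 form the SOXD group, which lacks a known activation domain, and SOX8 and SOX9 belong to the SOXE group of neural crest, glia, gonad and cartilage. CDK7 is the kinase of the general factor TFIIH and phosphorylates the tail of RNA polymerase II.

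Levels are given in FPKM (fragments per kilobase of transcript, scaled to the mapped fragments of the library), which are per length, so that levels of different genes can be set side by side. FPKM are also relative to the library, so that less RNA per cell and fewer cells of a type cannot be told apart in them. A loss of RNA per cell shared by most genes would not show in them either. Words such as level, lower and higher are thus relative to the library throughout. The summed FPKM of the THZ1 libraries lay between 97.8% and 100.5% of that of the DMSO library of the same line. The scaling largely fixes this sum, so that it does not measure RNA per cell. Between 8776 and 10182 genes were listed at 0. Absolute read depth is unknown, and low values gave only a rough depth of 89.2% to 97.6% of the DMSO library. This depth was read from the most common ratio among genes under 0.1 FPKM, a bin with only 1.46% to 2.16% of them. It is thus poorly defined. All 9 Ewing sarcoma markers examined were above 1 FPKM in all 6 libraries. Among 11 listed markers of other cell types, 2 keratin genes exceeded 1 FPKM in A673 cells, and 5 genes did so in SKNMC cells, the additional genes being the stromal genes DCN and LUM and the leukocyte gene PTPRC. In SKNMC cells DCN and LUM were higher with THZ1, at 30.9, 37.1 and 54.5 FPKM and at 23.5, 33.3 and 48.9 FPKM with DMSO, 50 nM and 200 nM, and PTPRC was at 10.2, 7.90 and 13.1 FPKM. The summed level of these 11 markers was 125.0 to 137.3 FPKM in A673 and 169.4 to 220.4 FPKM in SKNMC, CD3E was listed at 0 in every library, and their part in the differences between lines and between doses was not tested.

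With DMSO, SOX4, SOX2 and SOX12 were the 3 highest of the 9 genes in both lines. In A673 cells the order was SOX4 at 38.5 FPKM, SOX2 at 16.3, SOX12 at 14.2, SOX11 at 10.4, SOX13 at 6.03, SOX9 at 5.46, SOX6 at 5.39, SOX8 at 3.57 and SOX5 at 0.986 FPKM. In SKNMC cells SOX12 led at 54.3 FPKM, followed by SOX4 at 35.5, SOX2 at 25.1, SOX6 at 17.0, SOX11 at 10.6, SOX13 at 8.65, SOX8 at 3.85, SOX9 at 0.321 and SOX5 at 0.133 FPKM. Since each level rests on 1 library, no spread shows whether neighbours in this order, such as SOX9 and SOX6 in A673 or SOX4 and SOX2 in SKNMC, differ. Among all listed genes, SOX4 lay at percentile 91.0 (A673) and 90.8 (SKNMC), and SOX12 at percentile 79.9 and 94.2.

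SOX9 separated the lines most among the 9 genes. Its FPKM in A673 was 17.0-fold that in SKNMC, where it lay under 1 FPKM. SOX5, also under 1 FPKM in both lines, was 7.41-fold higher in A673. In the other direction SOX12 was 3.83-fold higher and SOX6 3.15-fold higher in SKNMC, whereas SOX2 and SOX13 were 1.53-fold and 1.43-fold higher there. SOX4, SOX8 and SOX11 differed between the DMSO libraries by at most 0.11 in log2 of FPKM + 1, with signs that depended on how the libraries were scaled.

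**Figure D1:**
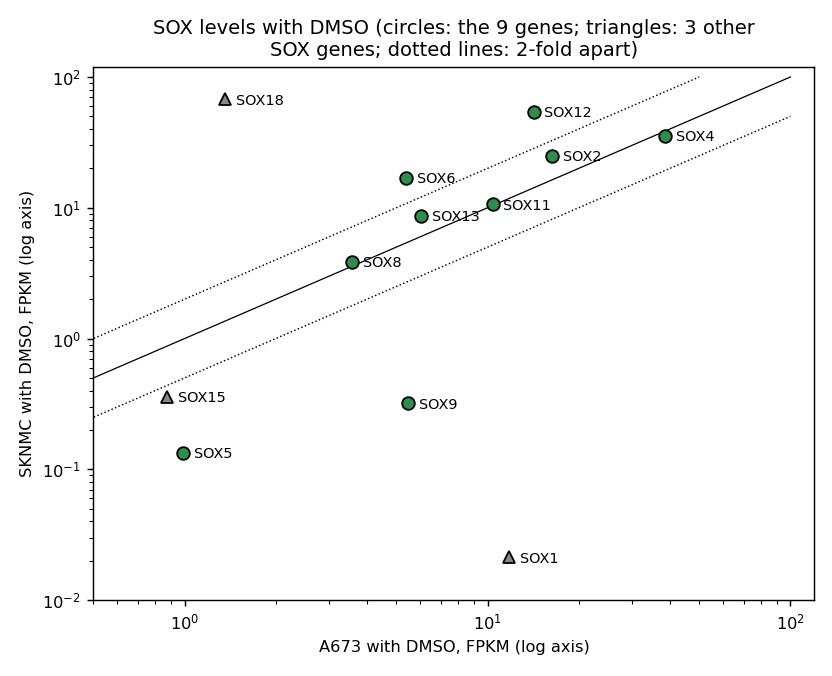
FPKM with DMSO in A673 (x axis) and SKNMC (y axis) cells, both on log axes, with 1 library per line. Circles are the 9 SOX genes and triangles are SOX1, SOX15 and SOX18; the solid line marks equal FPKM and the dotted lines a 2-fold difference, with SOX12 and SOX6 above the upper dotted line, SOX9 and SOX5 below the lower one, and SOX4, SOX11 and SOX8 close to the solid line.

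Differences are given as log2 of the ratio of FPKM + 1 (called here the log2 difference), a scale that understates differences of genes near or under 1 FPKM. A gene was counted as active if it exceeded 1 FPKM in the library used as reference, and as lower or higher if its log2 difference was at least 2-fold. By this rule, with SKNMC as the reference, 2 of 7 active SOX genes (SOX6 at -1.49 and SOX12 at -1.86) were lower in A673, where 15.7% of all 11896 active genes were. None of the 7 was higher in A673, against 6.16% of active genes, and SOX9, with a log2 difference of 2.29, was outside the count because it was not active in SKNMC. With libraries set to a common median of ribosomal protein genes, 9.33% of active genes were lower and 14.7% higher in A673.

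SOX2, the SOXB1 gene, was among the genes with the largest differences at 200 nM in both lines. Its FPKM was 16.3 with DMSO, 10.6 with 50 nM and 2.60 with 200 nM THZ1 in A673 cells. In SKNMC cells it was 25.1, 11.7 and 6.05 FPKM in the same order. Every THZ1 library thus lay under the DMSO library of its line, and the 200 nM library under the 50 nM library. Log2 differences from DMSO at the lower and higher dose were -0.57 and -2.27 (A673) and -1.03 and -1.89 (SKNMC). At 200 nM SOX2 stood at 15.9% of its DMSO level in A673 and at 24.1% in SKNMC. Ranked from the most negative log2 difference among active genes, these values lay at percentiles 2.46 and 4.73. In A673 25.3% of the log2 difference seen at 200 nM was present at 50 nM, and in SKNMC 54.7%.

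**Figure D2:**
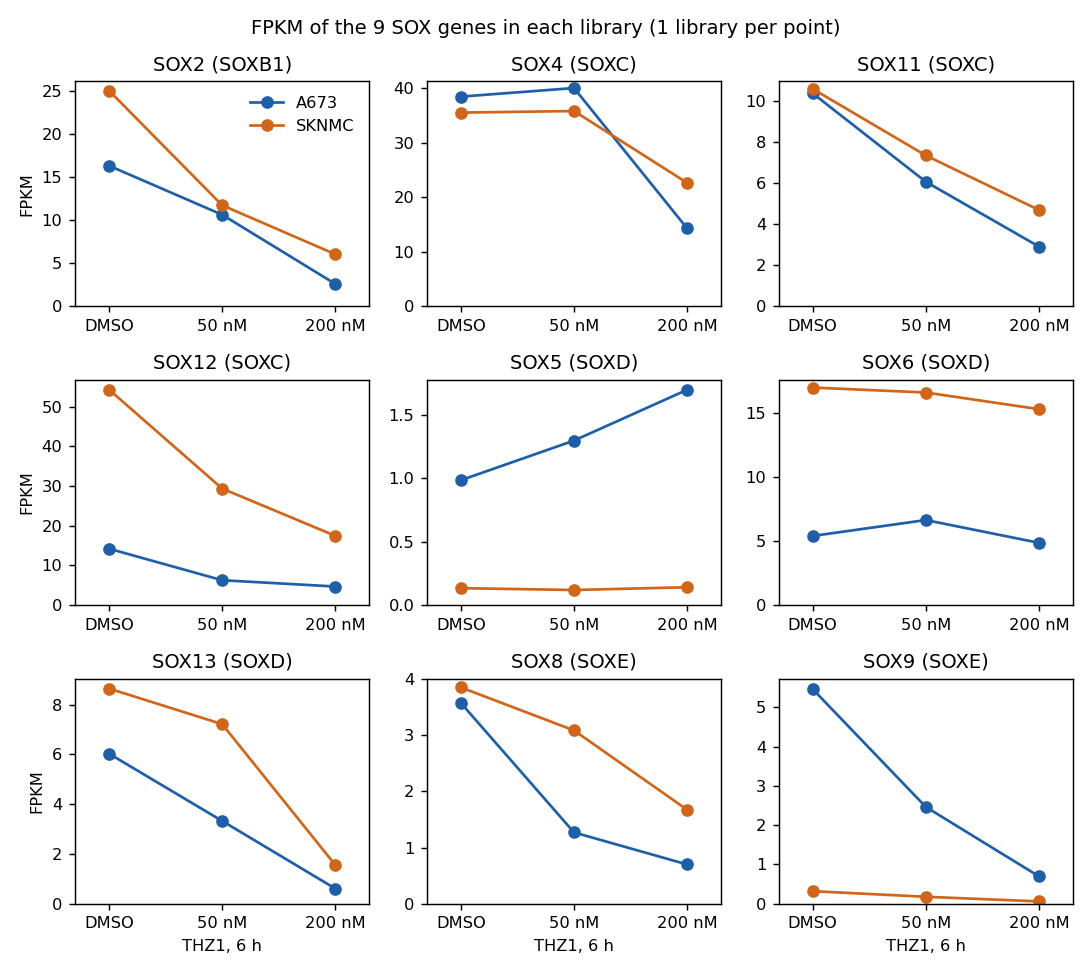
FPKM (y axis, linear, each panel with its own range from 0) of the 9 SOX genes with DMSO, 50 nM and 200 nM THZ1 for 6 h in A673 (blue) and SKNMC (orange) cells; each point is 1 library. SOX2, SOX11, SOX12, SOX13 and SOX8 lay lower at each higher dose in both lines, SOX4 lay lower at 200 nM and level at 50 nM, and SOX6 and SOX5 stayed near or above DMSO.

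In the SOXC group the members differed in the dose at which a difference appeared. SOX4, which promotes survival of progenitor cells and neuronal differentiation, was at 38.5, 40.1 and 14.3 FPKM in A673 and at 35.5, 35.8 and 22.7 FPKM in SKNMC with DMSO, 50 nM and 200 nM THZ1. The 50 nM libraries were thus level with DMSO, with log2 differences of 0.06 and 0.01, and the 200 nM libraries were lower, at -1.37 for A673 and -0.63 for SKNMC. The 50 nM values changed sign under another scaling, being -0.17 and -0.34 when libraries were set to a common median of ribosomal protein genes. At 200 nM the SKNMC value of SOX4 lay at percentile 45.4 of active genes, near their median of -0.55, whereas the A673 value lay at percentile 14.9.

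SOX11, which acts with SOX4 in neuronal differentiation, showed intermediate values at 50 nM. It measured 10.4, 6.08 and 2.92 FPKM in A673 and 10.6, 7.36 and 4.70 FPKM in SKNMC. The lines started at nearly the same level, and A673 ended lower. Log2 differences were -0.69 and -1.54 in A673 and -0.47 and -1.03 in SKNMC, so that 44.6% and 46.1% of the difference at 200 nM was present at 50 nM.

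SOX12, the third SOXC gene, had much of its difference already at 50 nM. Its level was 14.2, 6.25 and 4.67 FPKM in A673 and 54.3, 29.4 and 17.4 FPKM in SKNMC. With 200 nM the remaining share of the DMSO level was alike in the lines, at 32.9% in A673 and 32.1% in SKNMC, although the SKNMC library with 200 nM still held more SOX12 than the A673 library with DMSO. Log2 differences were -1.07 and -1.42 for A673 and -0.87 and -1.58 for SKNMC. At 50 nM, 75.1% of the 200 nM difference was present in A673 and 54.6% in SKNMC.

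The SOXD group held both the least and among the most different genes. SOX13, described as a regulator of T cell lineage choice and of WNT signalling, was at 6.03, 3.33 and 0.611 FPKM in A673 and at 8.65, 7.22 and 1.56 FPKM in SKNMC. The 50 nM libraries stayed nearer to DMSO and the 200 nM libraries lay far under them in both lines. Log2 differences were -0.70 and -2.13 in A673, and -0.23 and -1.91 in SKNMC, where 12.1% of the 200 nM difference was present at 50 nM. With 200 nM SOX13 stood at 10.1% of its DMSO level (A673) and 18.0% (SKNMC), the lowest share among the 7 SOX genes active in both lines.

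SOX6, which acts with SOX5 and SOX9 in cartilage and has roles in muscle and erythroid cells, had the smallest differences among SOX genes above 1 FPKM in both lines at 200 nM. It was at 5.39, 6.63 and 4.85 FPKM in A673 and at 17.0, 16.6 and 15.3 FPKM in SKNMC. Log2 differences were 0.26 and -0.13 in A673 and -0.03 and -0.14 in SKNMC, and the 200 nM values were positive, at 0.07 and 0.28, when libraries were scaled to the 75th percentile of active genes. Its 200 nM values lay at percentiles 63.4 and 73.2 of active genes. The SOX6 locus overlaps the listed gene C11orf58 on the opposite strand over 126.5 kb, and C11orf58 was far higher, at 160.1 to 194.7 FPKM in A673 and 152.2 to 243.9 FPKM in SKNMC. Whether the counting used strand is not given in the sources used here, and overlap of their exons was not examined. It is thus unknown whether reads of the 2 genes within the overlap were told apart.

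SOX5, the other SOXD partner of SOX9, was low throughout. It was at 0.986, 1.30 and 1.70 FPKM in A673, with log2 differences of 0.21 and 0.44, and between 0.119 and 0.140 FPKM in SKNMC. SOX5 was the only one of the 9 genes with more FPKM in the 200 nM than in the DMSO library of A673. Its nearest listed neighbour above, the lincRNA gene RP11-444D3.1 on the same strand at a distance of 262.2 kb, was at 0.972, 2.74 and 1.98 FPKM in A673 and at most 0.0895 FPKM in SKNMC.

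In the SOXE group, SOX8 and SOX9 were low to moderate with DMSO and lower with THZ1 in A673. SOX8, a gene of neural crest, glia and testis, was at 3.57, 1.27 and 0.699 FPKM in A673 and at 3.85, 3.08 and 1.67 FPKM in SKNMC. From like levels with DMSO the lines thus differed at 50 nM, with log2 differences of -1.01 in A673 and -0.25 in SKNMC, and at 200 nM, with -1.43 and -0.86; the difference between lines was not tested. SOX9, the regulator of cartilage formation and of testis development, was at 5.46, 2.46 and 0.699 FPKM in A673, where its log2 differences were -0.90 and -1.93. In SKNMC it was at 0.321, 0.179 and 0.0605 FPKM, and was not active there, with log2 differences of -0.16 and -0.32. At 200 nM SOX9 retained 12.8% of its DMSO FPKM in A673 and 18.8% in SKNMC, the latter from values under 1 FPKM.

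The SOX genes were then counted by line and dose. In A673 at 50 nM, 2 of 8 active members, SOX8 and SOX12, were lower, against 15.9% of the 11077 active genes. At 200 nM it was 7 of 8, the exception being SOX6, against 25.3% of active genes. In SKNMC 1 of 7 active members, SOX2, was lower at 50 nM, against 15.8% of the 11896 active genes. With 200 nM 4 of 7, namely SOX2, SOX11, SOX12 and SOX13, were lower there, against 27.3%. No SOX gene was higher at least 2-fold in any of these 4 comparisons, and of active genes 0.343% and 0.126% were so in A673 and 0.471% and 0.462% in SKNMC at 50 and 200 nM. The median log2 difference of the active members was -0.69 and -1.48 for A673 at 50 and 200 nM, beside -0.27 and -0.40 for all active genes. For SKNMC it was -0.25 and -1.03, beside -0.32 and -0.55. The counts at 50 nM thus lay near the background. The 3 calls at 50 nM, and that of SOX11 in SKNMC at 200 nM, were close to the 2-fold limit and were lost when libraries were scaled to the 75th percentile of active genes, a scaling under which 16.7% of active genes were lower and 2.86% higher in SKNMC at 200 nM. In both lines the doses share the DMSO library, so that the comparisons are not independent.

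The lines were also taken as the replicates of each dose, in a limma fit to log2(FPKM + 1) of all 6 libraries with cell line as a block, over 12399 genes above 1 FPKM in either DMSO library. SOX5 did not pass this filter, and SOX9 passed it through A673 alone. At 200 nM 7 of 8 SOX genes were lower at an adjusted p under 0.05, against 45.7% of genes tested, and the exception was again SOX6 with a mean log2 difference of -0.13 and a limma adjusted p of 0.520. SOX13 and SOX2 had the smallest limma adjusted p, 2.12e-05 and 2.92e-05, with mean log2 differences of -2.02 and -2.08. SOX12 and SOX11 followed at -1.50 and -1.28, and SOX8, SOX9 and SOX4 at -1.14, -1.12 and -0.997. The SOX9 mean joins -1.93 in A673 with -0.32 in SKNMC, where SOX9 was under 1 FPKM. At 50 nM 4 of 8 were lower, against 32.1% of genes tested, namely SOX12 at -0.97 and SOX2 at -0.80, with limma adjusted p of 0.00119 and 0.0123, and SOX11 and SOX8 with 0.0303 and 0.0479. SOX4 at 50 nM had a mean log2 difference of 0.03 and a limma adjusted p of 0.907. The fit left 2 residual degrees of freedom, and its variances were moderated with 7.95 prior degrees of freedom drawn from all genes tested. The residual measures how the dose differences vary between the 2 lines, pooled over both doses. There is no replicate within a line in it. The fit was chosen after the values were seen.

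**Figure D3:**
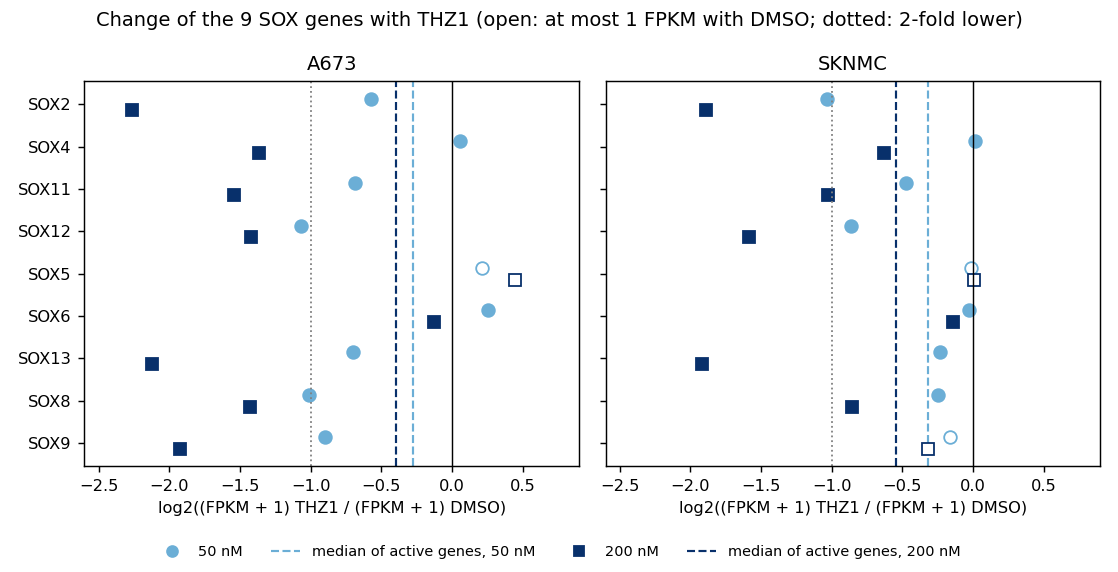
Log2 of the ratio of FPKM + 1 between THZ1 and DMSO libraries (x axis) for the 9 SOX genes in A673 (left) and SKNMC (right), at 50 nM (light circles) and 200 nM (dark squares), from 1 library per condition. Open symbols are genes at most at 1 FPKM with DMSO, dashed lines the medians of all active genes and the dotted line a 2-fold lower value; in A673 7 squares lie left of the dotted line and in SKNMC 4.

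The 200 nM libraries were also compared with the 50 nM libraries of the same line. In A673 4 of 9 active members were lower at least 2-fold at 200 nM than at 50 nM, against 7.97% of 10418 active genes. These were SOX2 at -1.69, SOX13 and SOX4 at -1.43 and -1.42, and SOX9 at -1.03. In SKNMC SOX13 at -1.68 was the 1 of 7 active members that was lower, against 9.09% of 11052 genes, while SOX2 and SOX12 followed at -0.85 and -0.72. None was higher, beside 0.134% and 0.362% of active genes. With the 75th percentile scaling 5.75% of active genes were lower and 1.81% higher in SKNMC. The median of the active members was -0.85 in A673 and -0.64 in SKNMC, beside -0.02 and -0.16 for all active genes. SOX12 and SOX8 in A673, at -0.35 and -0.42, had most of their difference already at 50 nM.

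**Figure D4:**
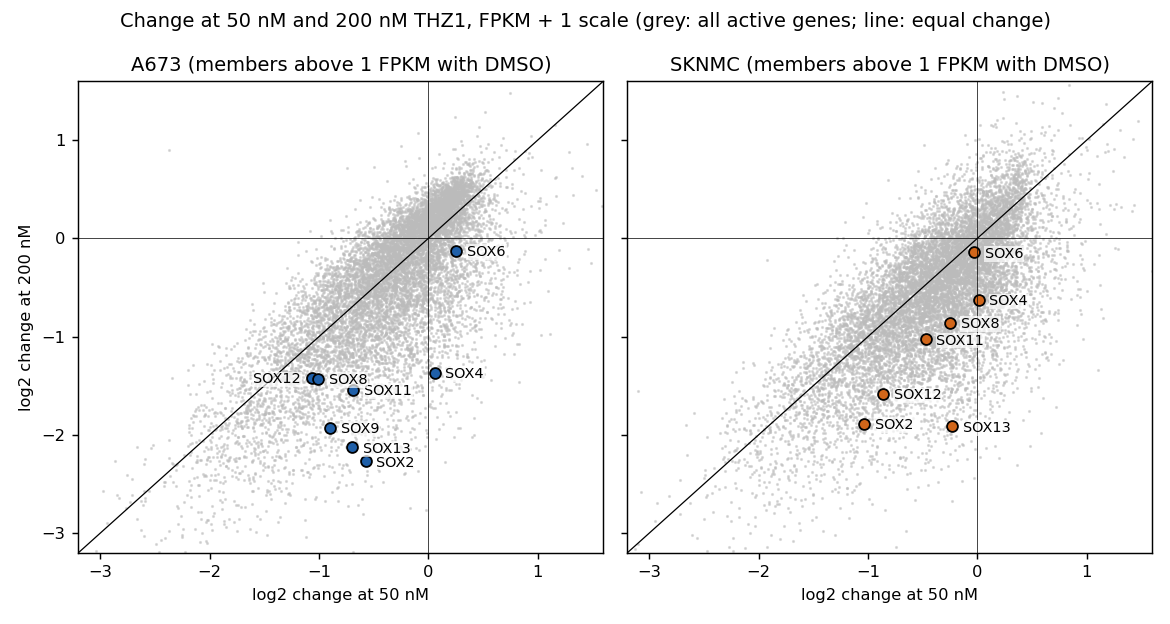
Log2 of the ratio of FPKM + 1 to DMSO at 50 nM (x axis) and 200 nM (y axis) for SOX genes above 1 FPKM with DMSO (coloured) and all active genes (grey) in A673 (left) and SKNMC (right); the line marks equal values, and 24 and 27 active genes lie outside the axes. Both axes share the DMSO library. All SOX genes shown lie under the line, SOX2, SOX13 and SOX4 farthest from it in A673 and SOX13 in SKNMC.

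Promoters are shown for SOX2, SOX12 and SOX13, which had large differences at 200 nM in both lines, and for SOX4, level with DMSO at 50 nM. They are RefSeq sequences of build GRCh38.p14, from 250 bases before to 50 bases after the start, all on the plus strand and written 5′ to 3′. The positions are chr3:181711675-181711974 for SOX2, chr20:325302-325601 for SOX12, chr1:204072865-204073164 for SOX13 and chr6:21593501-21593800 for SOX4. Capitals mark the letters of the GC box GGGCGG, the CCAAT box and the octamer ATGCAAAT on either strand, where the reverse strand reads CCGCCC for the GC box and ATTGG for the CCAAT box.
SOX2: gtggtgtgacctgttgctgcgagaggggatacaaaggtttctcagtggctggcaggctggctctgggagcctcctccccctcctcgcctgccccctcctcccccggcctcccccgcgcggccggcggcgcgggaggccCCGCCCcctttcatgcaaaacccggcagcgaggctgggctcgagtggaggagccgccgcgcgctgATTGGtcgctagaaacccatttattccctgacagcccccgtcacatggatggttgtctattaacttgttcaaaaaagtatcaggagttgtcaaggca
SOX12: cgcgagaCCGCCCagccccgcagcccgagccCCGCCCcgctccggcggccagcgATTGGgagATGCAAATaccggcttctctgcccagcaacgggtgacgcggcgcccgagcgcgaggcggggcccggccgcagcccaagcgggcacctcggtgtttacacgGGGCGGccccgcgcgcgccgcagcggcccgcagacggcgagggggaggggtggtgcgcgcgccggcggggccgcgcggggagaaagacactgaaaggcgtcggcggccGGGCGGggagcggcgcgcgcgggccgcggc
SOX13: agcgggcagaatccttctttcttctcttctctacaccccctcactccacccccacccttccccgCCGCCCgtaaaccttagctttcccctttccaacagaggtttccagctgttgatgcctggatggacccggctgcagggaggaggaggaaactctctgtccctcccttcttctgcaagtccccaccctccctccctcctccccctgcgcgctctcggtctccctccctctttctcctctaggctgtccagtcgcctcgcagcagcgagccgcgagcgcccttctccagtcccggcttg
SOX4: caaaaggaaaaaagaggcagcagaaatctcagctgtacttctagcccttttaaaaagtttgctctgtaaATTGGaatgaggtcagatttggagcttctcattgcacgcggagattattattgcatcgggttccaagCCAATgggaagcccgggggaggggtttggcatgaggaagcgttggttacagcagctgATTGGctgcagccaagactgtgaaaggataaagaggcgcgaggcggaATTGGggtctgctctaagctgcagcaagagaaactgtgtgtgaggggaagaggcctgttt

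The SOX4 promoter held 4 CCAAT boxes and no GC box. Of 35116 RefSeq promoters of the same length 0.991% held at least 4 CCAAT boxes, a limit equal to the SOX4 count. No share by number of copies was taken for the other motifs. The SOX12 promoter, with 80.3% G and C, held 4 GC boxes, 1 CCAAT box and 1 octamer, that of SOX2 held 1 GC box and 1 CCAAT box, and that of SOX13 held 1 GC box. Among all promoters 45.0% held a GC box, 34.6% a CCAAT box and 1.77% the octamer. None of the 4 promoters held TATAAA, found in 11.5%, or the SOX core AACAAT, found in 10.1%, or the ETS-type repeat GGAAGGAA, found in 3.67%, again on either strand. These are matches of letters in a window, not shown to be bound. RefSeq promoters were matched for 6 of the 9 genes, also for SOX5 and SOX6, which are not printed. The SOX5 promoter, at chr12:24562442-24562741 of GRCh38.p14, held AACAAT. Promoters were matched by gene symbol alone. Whether this SOX5 start is that of the measured gene (hg19 chr12:23682439-24103966) was not examined. SOX6 has several listed starts, of which starts 2, 3 and 5 held TATAAA, starts 2, 4 and 5 AACAAT, and start 5 GGAAGGAA. SOX8, SOX9 and SOX11 had no entry.

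Gene structure, which the choice of genes did not use, varied widely among them. SOX2 (hg19 chr3:181429713-181432221), SOX4 (chr6:21593971-21598847), SOX11 (chr2:5832798-5841516) and SOX12 (chr20:306206-310865) each consist of 1 exon and span 2.51 to 8.72 kb. SOX8 (chr16:1031807-1036979) and SOX9 (chr17:70117160-70122561) have 3 exons within 5.17 and 5.40 kb. SOX13 (chr1:204042242-204096863) has 14 exons over 54.6 kb. On the minus strand, SOX5 (chr12:23682439-24103966) has 15 exons over 421.5 kb and SOX6 (chr11:15987994-16761138) has 16 over 773.1 kb. At 200 nM the intronless genes ranged from -2.27 to -1.37 in A673 and from -1.89 to -0.63 in SKNMC. Among the SOX genes above 1 FPKM with DMSO, the long SOX6 gene was nearest to its DMSO level, whereas SOX13, with 14 exons, lay within the range of the intronless genes in A673 and slightly under it in SKNMC, so that exon number alone did not order the SOX genes.

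Most listed neighbours of the SOX genes were at or near 0 FPKM, so that few could be compared. ZCCHC3, which lies 25.2 kb from SOX12 on the same strand (chromosome 20), was at 15.5, 13.2 and 6.05 FPKM in A673 and at 25.2, 25.5 and 12.0 FPKM in SKNMC. It thus stayed near its DMSO level at 50 nM, where SOX12 was lower. On the other side NRSN2, 16.6 kb away, was at 23.9, 16.9 and 25.7 FPKM in A673 and at 59.6, 31.3 and 30.8 FPKM in SKNMC. ETNK2, 3.33 kb from SOX13 on the opposite strand, was at 2.60, 3.10 and 3.64 FPKM in A673 and between 9.47 and 11.0 FPKM in SKNMC, with no value like those of SOX13 at 200 nM. GENCODE also places SOX2 within SOX2-OT on the same strand, and SOX9 within SOX9-AS1 and SOX12 within NRSN2-AS1 on the opposite strand. Non-coding RNA genes without a symbol overlap SOX11 on the same strand over 5165 bases. Others overlap SOX4, SOX5, SOX6 and SOX13 on the opposite strand over 1854, 515, 8326 and 852 bases. Reads of all these pairs may be shared.

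The summed FPKM of the 9 SOX genes was 100.8, 78.0 and 33.1 in A673 and 155.4, 111.5 and 69.6 in SKNMC with DMSO, 50 nM and 200 nM THZ1. The sum with 200 nM was 32.8% of that with DMSO in A673 and 44.8% in SKNMC. Within this sum the SOXC genes kept a nearly even share, 62.5%, 67.1% and 66.2% in A673 and 64.6%, 65.1% and 64.4% in SKNMC. SOX2 made up 16.2% of the sum in the A673 library with DMSO and 7.87% in that with 200 nM, and in SKNMC 16.1% and 8.70%. The SOXD share was larger at 200 nM than with DMSO, 21.7% beside 12.3% in A673 and 24.4% beside 16.6% in SKNMC, with SOX6 near its DMSO level. The SOXE share in A673 was 8.95% with DMSO and 4.23% with 200 nM, and stayed between 2.49% and 2.92% in SKNMC.

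**Figure D5:**
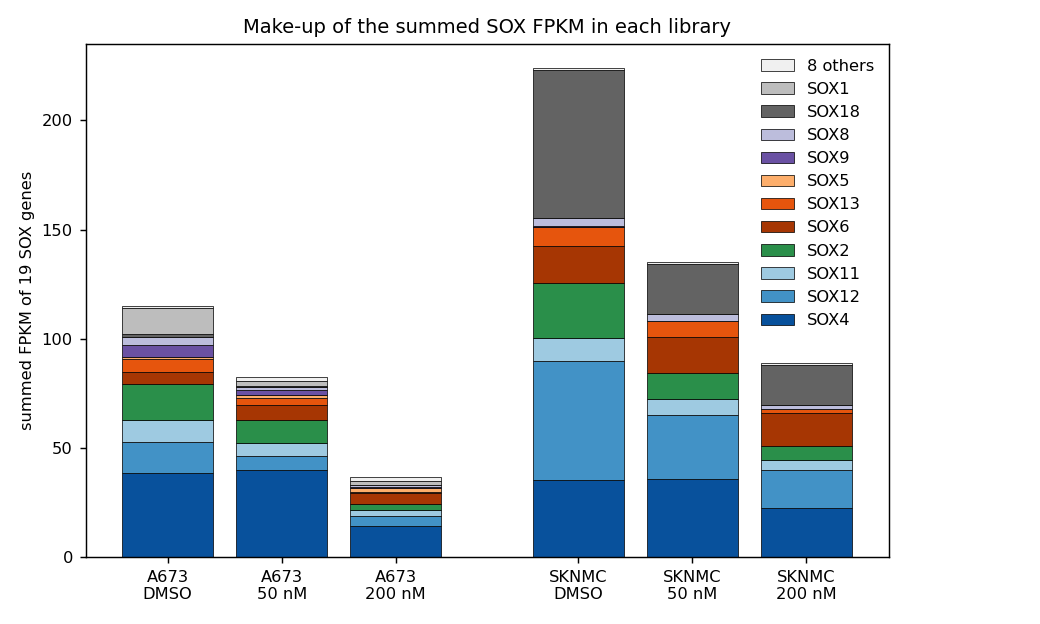
Summed FPKM (y axis, linear from 0) of all 19 listed SOX genes in each of the 6 libraries, stacked by gene, with the 9 genes described here in colour and SOX1, SOX18 and 8 others in grey shades. Bars are 115.1, 82.5 and 36.8 FPKM high in A673 and 223.7, 134.9 and 88.7 FPKM in SKNMC; SOX18 is a large block in SKNMC and SOX1 a visible one in A673 with DMSO.

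Of the 10 other listed SOX genes, SOX1 and SOX18 were high in 1 line each. SOX1, a SOXB1 gene of neural progenitors like SOX2, was at 11.8, 2.53 and 1.57 FPKM in A673 and at most 0.0212 FPKM in SKNMC. With log2 differences of -1.85 and -2.31 it was further from DMSO than SOX2 at 50 nM and close to it at 200 nM. SOX18, a gene of blood and lymphatic vessel development, was at 67.6, 22.9 and 18.6 FPKM in SKNMC, above every other SOX gene there with DMSO, and at 1.36, 0.313 and 0.251 FPKM in A673. Its log2 differences in SKNMC, -1.52 and -1.81, were already large at 50 nM. SOX15 was at 0.877, 1.51 and 1.69 FPKM in A673 and at most 0.473 FPKM in SKNMC, and the remaining 7 were under 1 FPKM in every library.

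Genes outside the family were taken from lists of partners, targets and relatives of SOX factors. The counts of each list, here and below, stand beside the shares of all active genes. At 50 and 200 nM, 15.9% and 25.3% of these were lower at least 2-fold in A673, and 15.8% and 27.3% in SKNMC. At most 0.471% were higher. Whether any list differs from these shares was not tested. Of 25 other HMG-box genes, 23 were active in each line, and 6 and 6 were lower at least 2-fold in A673 and 4 and 6 in SKNMC at 50 and 200 nM. None was higher. Their medians at 200 nM, -0.63 in A673 and -0.51 in SKNMC, lay nearer zero than those of the SOX genes. The medians of all active genes were -0.40 and -0.55. The most abundant of the HMG-box genes, HMGB1, an architectural chromatin protein, stayed at 682.9 to 796.5 FPKM in A673 and 431.3 to 465.6 FPKM in SKNMC. HMGB2 was at 239.6, 174.0 and 160.2 FPKM in A673, and 224.3 to 266.7 FPKM in SKNMC. SSRP1, a subunit of the histone chaperone FACT, and HMGB3 had log2 differences between -0.25 and 0.30 in all 4 comparisons.

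Of 15 SOX partner factors, 11 were active in A673 and 10 in SKNMC, and 2 and 5 were lower in A673 and 1 and 5 in SKNMC at 50 and 200 nM, with none higher. The 4 with the highest mean FPKM are named. POU3F1, a POU factor of neural and glial cells, was at 49.8, 16.4 and 6.04 FPKM in A673 and at 43.5, 25.3 and 8.89 FPKM in SKNMC, with log2 differences of -2.85 and -2.17 at 200 nM beside -2.27 and -1.89 for SOX2. POU3F2, a POU partner of SOX2 in neural progenitors, was at 39.6, 20.5 and 13.0 FPKM in SKNMC and at 2.78, 0.871 and 0.216 FPKM in A673. PAX3, a neural crest factor that acts with SOX10, was like SOX4 in A673, with log2 differences of -0.04 and -1.37. In SKNMC PAX3 was at -0.32 and -1.08, beside 0.01 and -0.63 for SOX4. CTNNB1, which encodes beta-catenin, differed in the other direction at 50 nM, by 0.45 and 0.60.

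Genes known as targets of SOX factors were read in the same way. Of 10 genes downstream of SOX2, 5 were active in A673 and 4 in SKNMC, and 1 and 2 were lower in A673 and 1 and 1 in SKNMC at 50 and 200 nM. LIN28B, an RNA-binding protein of progenitor cells, was at 11.8, 2.13 and 1.61 FPKM in A673 and at 14.9, 3.12 and 1.86 FPKM in SKNMC, and was thus lower than SOX2 relative to DMSO already at 50 nM. NOTCH1 was at 4.46, 2.45 and 1.71 FPKM in A673 and at 5.92, 3.19 and 3.24 FPKM in SKNMC. CCND1, the cyclin D1 gene, was at 710.6, 460.6 and 504.7 FPKM in A673 and at 370.2, 197.0 and 202.5 FPKM in SKNMC. NES was low, at 2.92, 3.50 and 4.16 FPKM in A673 and at most 0.119 FPKM in SKNMC.

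Of 5 SOX4 and SOX11 target genes, 4 were active in A673 and 5 in SKNMC, and 1, SEMA3C in SKNMC at 50 nM with a log2 difference of -1.25, was lower at least 2-fold. TUBB3, the neuronal tubulin gene, was at 155.9, 168.4 and 194.9 FPKM in A673 while SOX4 and SOX11 were lower at 200 nM, and at 21.7, 16.9 and 17.1 FPKM in SKNMC. EZH2, a histone methyltransferase gene, had a log2 difference of -0.66 at 200 nM in A673 and -0.65 in SKNMC, and TEAD2 was at -0.64 and 0.08 in A673 and at -0.51 and -0.12 in SKNMC at 50 and 200 nM. In the cartilage list, 3 of 13 listed genes were active in each line and none was lower or higher at least 2-fold. COL2A1 and ACAN, the defining cartilage matrix genes, were at most 0.402 and 0.00788 FPKM, and COL9A3 was at 11.6, 12.3 and 15.3 FPKM in A673 and at 17.2, 14.5 and 24.6 FPKM in SKNMC.

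Among 9 neural crest and glial genes linked to SOXE factors, 3 were active in A673 and 5 in SKNMC, of which 2 and 2 were lower in A673 and 1 and 3 in SKNMC at 50 and 200 nM. TFAP2A, a neural crest factor, was at 14.9, 5.29 and 3.81 FPKM in A673 and at 13.6, 5.91 and 3.56 FPKM in SKNMC. SNAI2 was at 3.07, 0.814 and 0.411 FPKM in A673 and at 16.5, 8.82 and 7.46 FPKM in SKNMC. FOXD3 was at 3.99, 2.98 and 1.38 FPKM in SKNMC and under 1 FPKM in A673, and S100B was at 17.8, 18.4 and 19.4 FPKM in SKNMC and at most 0.0217 FPKM in A673.

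Of 8 enzymes that modify or degrade SOX proteins, all were active in both lines, with 1 and 2 lower in A673 and 1 and 2 in SKNMC at 50 and 200 nM. HUWE1, a ubiquitin ligase gene, and SETD7, a lysine methyltransferase gene, had log2 differences between -0.36 and 0.31. Those past 2-fold were named after their values were seen. KAT5 was at 20.0, 7.40 and 4.25 FPKM in A673 and at 21.5, 8.19 and 5.97 FPKM in SKNMC, and EP300 was at 11.4, 10.9 and 3.30 FPKM in A673 and at 12.6, 11.2 and 3.44 FPKM in SKNMC, the latter level with DMSO at 50 nM and lower at 200 nM like SOX4. FBXW7, the ubiquitin ligase adaptor reported to act on SOX9, was higher at 50 nM, at 4.84, 11.2 and 5.42 FPKM in A673 and at 4.98, 14.1 and 9.60 FPKM in SKNMC.

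The genes whose pattern was most like each SOX gene were found by Pearson r of log2(FPKM + 1) over the 6 libraries, among 12169 other genes. The libraries share a line or a dose, so that r describes these 6 points alone. SOX2 was most like RIC8B and FLRT2, with r of 0.997 and 0.996, and SOX4 most like MCPH1 and ZUFSP at 0.994 and 0.992. MCPH1, at 9.69, 10.4 and 1.79 FPKM in A673 and 8.02, 9.92 and 3.86 FPKM in SKNMC, had the level 50 nM values of SOX4. SOX11 was most like ZZZ3 and ZIC2, and SOX13 most like NFRKB and LIN54, with r between 0.997 and 0.999, and SOX12 had an r of 0.999 with HEATR1. SOX9 was most like LONRF3 and GALNT4, SOX8 most like C1orf52 and ATOH8, and SOX6 most like TMEM128 and ACTL8, the last of which was at most 1.51 FPKM. High values of r were common with 6 points, since between 60 genes for SOX4 and 756 genes for SOX6 had r above 0.95. SOX5 was not above 1 FPKM with DMSO in either line and was not searched.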

How the data were processed

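RNA was measured in A673 and SKNMC cells, grouped by the labels, some of which spell SKNMC differently. The authors sequenced TruSeq libraries as paired-end reads, aligned them with STAR to hg19 (GRCh37) and estimated FPKM; the paper names StringTie, whereas the submitters' processing notes name Cufflinks. Versions and strandedness are not given in the sources used here. The deposited FPKM table's title speaks of an average, while the labels give 1 library for each condition. The authors also deposited 4 columns of log2 fold changes of THZ1 against DMSO, which were not used.

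Log2 differences used a pseudocount of 1. Genes above 1 FPKM in the reference library were counted when differing at least 2-fold, in 7 comparisons. Code was checked on data with known answers. Named genes were the 9 SOX genes, nearest neighbours, the 2 most similar genes and up to 4 of highest mean FPKM per list; TUBB3 is listed more than once and its highest row was used. Some genes under this rule are not reported here. Members and lists were chosen with earlier results of these data known. For each comparison 9 alternatives were tried. A fit with limma 3.58.1 in R 4.3.3 took cell line as a block, with Benjamini-Hochberg adjustment over all genes tested. Gene structure came from GENCODE on GRCh37 and promoters from RefSeq. Python 3.11.15, pandas 2.3.3, NumPy 2.4.6 and matplotlib 3.10.9 were used. FPKM holds no counts, so no interval for counting error was possible.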

Additional observations from a re-analysis of the deposited data

How the results depend on the processing

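Within a line no library could be left out. In the limma fit with cell line as replicate block, an alternative chosen after seeing the data, 7 SOX genes were lower at 200 nM and 4 at 50 nM. Of all genes tested, 45.7% and 32.1% were lower at these doses. Leaving out each library in turn, on 1 residual degree of freedom, gave 6 to 7 at 200 nM, against 37.2% to 47.6% of genes tested. At 50 nM it gave 1 to 5, against 19.1% to 36.3%. The 50 nM count was 2 without A673 DMSO (35.0% of genes tested), 2 without A673 50 nM (19.1%) and 1 without SKNMC 50 nM (20.6%). Counts of SOX genes lower at least 2-fold at 200 nM were 7 in A673 under all 9 alternatives (of 8, or of 9 with SOX5 where the filter took either library or was dropped). The share of all genes counted as lower there ran from 10.2% with no filter to 41.1% at the 1.5-fold limit. In SKNMC the count of 4 was 3 with a common sum (26.2% of all active genes lower) or the 75th percentile of active genes (16.7%), and 6 with a common median of ribosomal protein genes (47.2%) or a 1.5-fold limit (48.0%). At 50 nM the A673 count of 2 was 1 with a common sum of listed FPKM (15.3% of active genes), 0 with the 75th percentile (12.7%) and 5 at a 1.5-fold limit (31.8%). The SKNMC count of 1 was 0 with the 75th percentile (12.9%) and 2 both with ribosomal protein genes (23.4%) and at 1.5-fold (33.5%). For 200 nM against 50 nM in SKNMC the count of 1 was 5 at 1.5-fold (23.8%). Between the DMSO libraries, 0 SOX genes were higher in A673, against 6.16% of active genes. The count was 1, SOX9, with genes above 1 FPKM in either library (8.42% of these higher) and with no filter (3.81%). Single calls lost were SOX8 (-0.998 and -0.92) and SOX12 (-0.93) in A673 and SOX2 (-0.88) in SKNMC at 50 nM, and SOX11 in SKNMC at 200 nM (-0.999 and -0.66). Calls gained at 2-fold, with a pseudocount of 0.1 or ribosomal scaling, were SOX9 in A673 at 50 nM (-1.12 and -1.06), SOX12 in SKNMC at 50 nM (-1.21), and SOX8 (-1.16 and -1.07) and SOX4 (-1.17) in SKNMC at 200 nM, as well as SOX11 in A673 for 200 against 50 nM (-1.03). Relative to the deposited scale, the 75th percentile shifted the median log2 difference over active genes by 0.13 and 0.20 in A673 and 0.15 and 0.36 in SKNMC at 50 and 200 nM, and ribosomal protein genes by -0.20, -0.29, -0.27 and -0.41. No called value changed sign under the alternatives run.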
